A study of Mus musculus with 3 samples.

Results

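HOX genes encode homeodomain transcription factors and lie in 4 clusters, HoxA to HoxD, in which each gene has a paralogue number that follows its place along the cluster. During development the low-numbered genes act towards the head and the high-numbered genes towards the tail and the tips of the limbs. Fibroblasts are known to keep a set of active HOX genes that records the body site they came from. The genes described here are those with at least 1 probe set whose annotation gives exactly 1 gene symbol, that symbol being Hox, a cluster letter from a to d and a number. The array carried 48 such probe sets for 33 genes, out of 34945 probe sets for 18193 genes with 1 symbol. The reference annotation lists 39 HOX cluster genes. The other 6 were not analysed here.

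The cells were NIH3T3, an immortalised mouse embryonic fibroblast line, and the series belongs to an RNAi screen for resistance to oxidative stress. On 2 arrays the cells carried the empty vector (replicates 1 and 2), were grown in 10% calf serum with no treatment and stand for basal expression. On 1 array the cells expressed an shRNA, a hairpin RNA that silences its target by RNA interference, here retinol saturase (RetSat), with the number 2 in the array's title, which may be a replicate or a hairpin number. These cells withstand the peroxide t-BHP (tert-butyl hydroperoxide) well, per the labels. The sources used here do not give their growth or treatment, nor whether any of the cells were a clone or a pool.

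The target gene went with the labels. Retsat read 415.9 and 495.9 signal units on the control arrays and 69.5 on the shRNA array, or 15.2% of the control mean. All 12 fibroblast markers lay at or above the median signal, with sums of 94199 to 98896 units per array. Markers of other cell types did so for 4 of 6 epithelial genes (sums 289.9 to 330.8), 2 of 5 leukocyte genes (246.3 to 290.3), 1 of 4 neural genes (146.7 to 208.7), and 0 of 4 endothelial (51.6 to 91.3), 0 of 3 muscle (51.5 to 59.9) and 0 of 2 pluripotency genes (3.5 to 13). Over all genes 59.6% reached that level, so such a count alone does not mark a cell type. None of these genes read 0, and among the dim ones the epithelial cadherin Cdh1 read 1.8 to 12.5 and the endothelial Pecam1 read 2.3 to 3.5. The control arrays were far apart. Over the 10843 genes tested, log2 signals of empty vector 1 and empty vector 2 had a difference with an SD of 0.74, compared with 0.34 between RetSat shRNA and empty vector 2, and the median gene read 0.14 log2 lower on empty vector 1 than on either other array. Differences from each control are therefore given separately throughout, and the 2 differences share the RetSat shRNA array.

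The first question was which HOX genes gave clear signal in these cells. A gene was called dim where the mean log2 signal of its probe set lay under the median of all probe sets, a level of about 33.3 signal units. No detection calls were used here. Of the 33 HOX genes, 13 (39.4%) reached that level, whereas 59.6% of all genes did. Each gene took its brightest probe set, so a gene with more of them reaches the level more readily. There were 48 probe sets for the 33 HOX genes and 34945 for all 18193 genes. The shares were not adjusted for this. As a second yardstick, 43 probe sets for olfactory receptors, which fibroblasts are not known for, read at most 32.7 on empty vector 1, 40.3 on empty vector 2 and 45.5 on RetSat shRNA. Triplets of values below keep this order of arrays. None of them reached the median level by its mean log2 signal, and 11 of the 13 clear HOX genes exceeded all of them on every array. The exceptions, Hoxa9 and Hoxb6, did so on 2 arrays. Of the 20 dim genes, 15 exceeded the highest olfactory reading on no array. The 2 yardsticks are not independent, since the median level lies close to the highest olfactory readings. HOX genes with several probe sets also took the brightest, while olfactory probe sets were read singly. The share of all genes above the olfactory readings was not counted. Signals of different probe sets depend on the probes as well as on the RNA, so the readings below do not rank the genes by transcript level. In a bulk sample, fewer cells with a transcript and less of it per cell cannot be told apart.

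**Figure D1:**
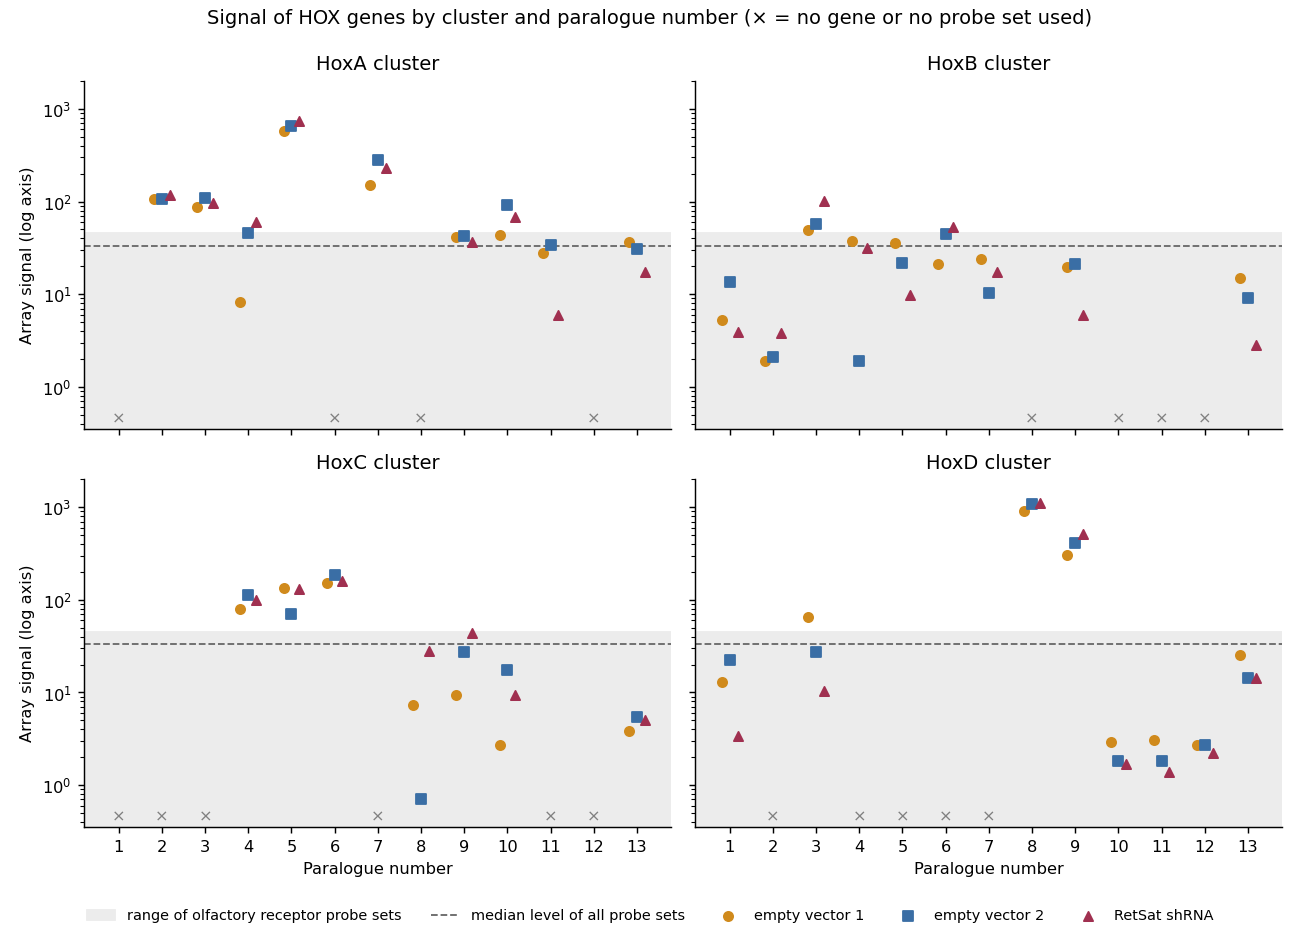
Signal (log axis) of each HOX gene's representative probe set on the 3 arrays, by cluster and paralogue number. Points are single arrays, the dashed line is the median level of all probe sets (33.3 units), the grey band is the full range of 43 olfactory receptor probe sets, and a cross marks a number with no gene or no probe set used. Clear signal is seen at numbers 2 to 10, while every gene numbered 1 or 11 to 13 lies below the line by its mean log2 signal.

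By position, clear signal was found in 3 of 7 anterior genes (paralogues 1 to 3), 7 of 12 central genes (4 to 8) and 3 of 14 posterior genes (9 to 13). By cluster it was found in 6 of 9 HoxA genes, 2 of 9 HoxB genes, 3 of 7 HoxC genes and 2 of 8 HoxD genes. Over all genes the share was 59.6%. The central genes and HoxA were near it, the other groups were lower, and none of these shares was tested. Neither of the paralogue 1 genes measured, Hoxb1 and Hoxd1, was clear, and their signals ran from 3.4 to 22.4. The same held for all 7 genes numbered 11 to 13, which act in the distal limb and the tail end of the body and read 1.4 to 36.2.

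In HoxD, clear and dim genes adjoined. Hoxd8 and Hoxd9, neighbours in the annotation, read above 300 units on every array. The next genes towards the posterior end, Hoxd10 to Hoxd13, read 1.4 to 25.3, none above the highest olfactory reading of its array. The promoter windows of Hoxd10, Hoxd9 and Hoxd8 are shown because they lie on either side of this boundary, and that of Hoxa5 as a clear gene of another cluster. They are RefSeq sequences on GRCm38.p6, from 250 bases before to 50 after the annotated start, written 5′ to 3′ on the gene's strand. Capitals mark matches, on either strand, to the TATA box TATAAA, the promoter element CCAAT, the nuclear receptor hexamer AGGTCA, the homeodomain core TAATTA or the HOX and PBX element TGATNNAT. These matches do not overlap one another.
Hoxd10, chr2:74691641-74691940, plus strand: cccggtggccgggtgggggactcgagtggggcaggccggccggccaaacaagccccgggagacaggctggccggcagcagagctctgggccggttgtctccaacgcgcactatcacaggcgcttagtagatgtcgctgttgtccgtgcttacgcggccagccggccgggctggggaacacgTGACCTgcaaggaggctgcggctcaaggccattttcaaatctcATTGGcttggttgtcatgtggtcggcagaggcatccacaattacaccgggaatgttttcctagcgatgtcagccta
Hoxd9, chr2:74697513-74697812, plus strand: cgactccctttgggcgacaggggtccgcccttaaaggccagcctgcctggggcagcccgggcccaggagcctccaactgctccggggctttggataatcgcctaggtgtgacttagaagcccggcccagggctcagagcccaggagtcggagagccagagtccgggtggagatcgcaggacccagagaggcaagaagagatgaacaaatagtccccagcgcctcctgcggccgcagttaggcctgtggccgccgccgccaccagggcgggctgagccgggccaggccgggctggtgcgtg
Hoxd8, chr2:74704365-74704664, plus strand: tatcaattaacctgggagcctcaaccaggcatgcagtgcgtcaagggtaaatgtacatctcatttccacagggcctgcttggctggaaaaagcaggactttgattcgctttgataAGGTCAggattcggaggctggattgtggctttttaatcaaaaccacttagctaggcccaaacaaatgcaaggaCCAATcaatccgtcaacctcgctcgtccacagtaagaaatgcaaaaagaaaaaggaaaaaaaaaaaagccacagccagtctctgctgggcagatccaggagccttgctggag
Hoxa5, chr6:52204538-52204837, minus strand: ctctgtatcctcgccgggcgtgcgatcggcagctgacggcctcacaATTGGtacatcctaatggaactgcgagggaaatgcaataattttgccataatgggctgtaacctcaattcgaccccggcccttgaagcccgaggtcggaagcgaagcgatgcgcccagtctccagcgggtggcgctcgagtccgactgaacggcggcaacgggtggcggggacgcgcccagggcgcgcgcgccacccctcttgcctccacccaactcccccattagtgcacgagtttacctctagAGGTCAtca
The Hoxd9 window held none of these letters. Hoxd8, Hoxa5 and the dim Hoxd10 each held 1 CCAAT and 1 AGGTCA match. The table gave 21 windows for the measured genes, of which 10 belonged to 9 clear genes and 11 to 10 dim genes. Of these, 3 of the 10 and 3 of the 11 held AGGTCA, as did 16.3% of all 32851 windows. The element CCAAT was present in 5 and 7 (37.4% of all windows), TATAAA in 1 and 1 (13.6%), TGATNNAT in 1 and 2 (8.85%) and TAATTA in 0 and 2 (5.29%), both of them windows of Hoxd11. The ratio of observed to expected CpG had a median of 0.581 in clear genes (range 0.280 to 1.02) and 0.787 in dim genes (0.257 to 0.92), against 0.384 over all windows. The clear and dim ranges overlapped over most of their length, and dim Hoxd10 (0.754) lay above clear Hoxd8 (0.367) and Hoxd9 (0.573). These counts describe letters in short windows and are not evidence of binding.

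Between shRNA and control cells, none of the 13 clear HOX genes passed the test. In limma's moderated test over all 10843 genes the adjusted p was 1 after rounding for each of them, and the unadjusted p ran from 0.134 (Hoxb3) to 0.981 (Hoxa3). The SE of the log2 difference was 0.50 to 0.56. The same test called 0% of all genes, and 108 of them (0.996%) had an unadjusted p under 0.05, as did 0 of the 13. Its spread comes from the 2 control arrays alone, which stood far apart, so the count of 0 does not measure the size of the changes. Even Retsat, at 15.2% of the control mean, was not called by this test. By size, 0 of the 13 lay at least 2-fold from both control arrays, with a background of 0.0922% of genes higher and 0.498% lower. At a fold of 1.5 it was 1 gene, Hoxb3, on the higher side, where the background was 1.29%, and 0 on the lower side, where it was 1.89%. All differences and fold rules are on the log2(signal + 10.2) scale. It understates changes at low signal, also for clear genes near the median level.

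**Figure D2:**
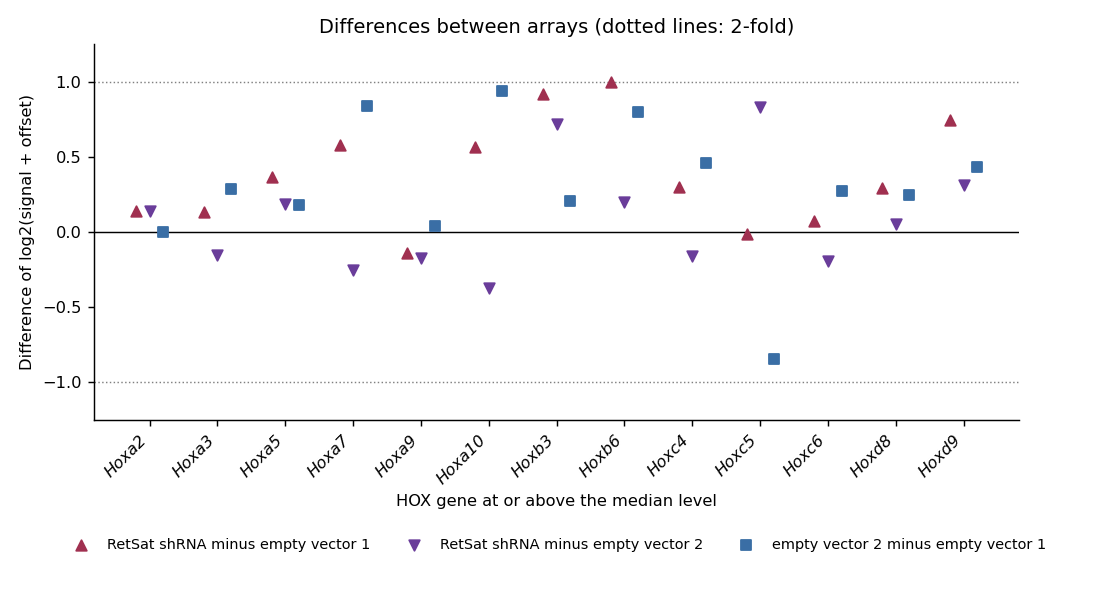
Differences of log2(signal + offset) between each pair of arrays for the 13 HOX genes at or above the median level. Each point is 1 difference between 2 arrays, so there are no error bars, and dotted lines mark 2-fold. All points lie within the dotted lines, and most differences from empty vector 1 lie above 0.

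HoxA was the cluster with the most clear genes. Hoxa5, which acts in the lung, trachea and the skeleton at the base of the neck, read 574.4 and 650.2 on the control arrays (612 ± 53.6, SD, n = 2) and 742.1 on RetSat shRNA. RetSat shRNA was the highest array, by 0.36 log2 over empty vector 1 and 0.19 over empty vector 2, and the controls themselves lay 0.18 apart. Hoxa7, a trunk gene, read 152.1, 279.3 and 232.1. RetSat shRNA thus lay between the controls, 0.58 above the one and 0.26 below the other.

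The anterior HoxA genes were closer together. Hoxa2, which patterns the hindbrain and the second branchial arch, read 106.5 on both control arrays and 118.5 with the shRNA, a log2 difference of 0.14 from each. Hoxa3, needed for the thymus and parathyroid, read 87.5, 108.8 and 96.7, so RetSat shRNA fell inside the gap between the controls. The posterior Hoxa9, which acts in blood stem cells, and Hoxa10, which acts in the lumbar region and the uterus, read nearer the level that marks dim genes. Hoxa9 read 41.4, 42.7 and 36.6, and was the 1 clear HOX gene below both controls (background 25.4%), by 0.14 and 0.18 log2. Its other probe set, a dim one, went the other way at 12.6, 4.6 and 20.2, with RetSat shRNA above both controls. Hoxa10 read 43.2, 91.9 and 68.7, and its controls lay 0.94 log2 apart, the widest gap among the 13. A dim Hoxa10 probe set read 27.8, 16.8 and 37.8, with the controls in the other order and RetSat shRNA above both.

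HoxB gave clear signal for Hoxb3 and Hoxb6 alone. Hoxb3, which acts in the hindbrain and pharyngeal region, read 48.7 and 57.6 on the control arrays (53.1 ± 6.29, SD, n = 2) and 101.1 on RetSat shRNA. RetSat shRNA lay outside the controls, 0.92 and 0.72 log2 above them, while they differed by 0.20. The fitted difference was 0.82 with an SE of 0.50 (limma, adjusted p = 1 after rounding), and it has no replicate check on the shRNA side. A second Hoxb3 probe set read 29.7, 46.4 and 57.0, with RetSat shRNA highest by 0.75 and 0.25 log2. Hoxb6, active in the lateral trunk and limb bud, read 21.4, 44.6 and 52.8. It was the clear gene nearest the dim level and lay 0.995 log2, just under 2-fold, above empty vector 1 but 0.20 above empty vector 2. Its control mean of 33.0 units was under the level of 33.3, and its RetSat shRNA reading lifted it over.

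In HoxC, clear signal came from the adjoining genes Hoxc4, Hoxc5 and Hoxc6, which act at the level of the neck and forelimb. Hoxc4 read 79.5, 113.2 and 100.3, and Hoxc6 read 151.0, 184.3 and 159.6. In both, RetSat shRNA lay between the controls. Hoxc5 had the opposite order, at 133.5, 69.8 and 132.0. Empty vector 2 was its low array, by 0.84 log2 from empty vector 1, and RetSat shRNA differed from empty vector 1 by -0.02.

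In HoxD, Hoxd8 and Hoxd9, which act in the trunk and the lumbar region and upper limb, were each lowest on empty vector 1 and highest on RetSat shRNA. Hoxd8 read 913.3, 1082.7 and 1122.7, and RetSat shRNA exceeded the controls by 0.29 and 0.05 log2. Hoxd9 read 302.6 and 411.5 on the control arrays (357 ± 77.0, SD, n = 2) and 514.0 on RetSat shRNA. Its differences were 0.74 and 0.31, and the controls differed by 0.43, so the step from the nearer control was smaller than that between the controls.

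Across the 13 genes, RetSat shRNA lay above both controls in 6 (Hoxa2, Hoxa5, Hoxb3, Hoxb6, Hoxd8 and Hoxd9), or 46.2% against 34.4% of all tested genes. After centring it was 7 of 13 against 45.4% of all genes, and after quantile normalization 7 of 13 against 36.3%. Among the 6, Hoxb6 passed the filter through its RetSat shRNA reading. Its place there, and at the top of the range given below, is thus partly set by the filter. The median difference was 0.30 from empty vector 1 and 0.05 from empty vector 2, compared with 0.14 and 0 over all genes. Between the controls the median was 0.27, compared with 0.14 over all genes, and 11 of the 13 were higher on empty vector 2 than on empty vector 1 (background 59.3%). Empty vector 1 was the lowest array for 10 of the 13 (background 52.6%), the exceptions being Hoxa2, Hoxa9 and Hoxc5, and it was the highest for Hoxc5 (background 34.2%). With the arrays centred on their medians or quantile normalized it was lowest for 11 of 13, where the background was 57.3% and 57.4%. After quantile normalization the median between the controls was 0.50, compared with 0.20 over all genes, and after centring it was 0.32 and 0.18. No clear HOX gene differed 2-fold between the controls (0 of 13, background 12.7%), or between RetSat shRNA and either control (backgrounds 13.6% and 1.73%). The range of the differences from empty vector 1 was -0.14 (Hoxa9) to 0.995 (Hoxb6), and from empty vector 2 it was -0.37 (Hoxa10) to 0.83 (Hoxc5).

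Of the clear genes, 8 had further probe sets, which test whether the pattern belongs to the gene or to 1 set of probes. Of these 12 probe sets, 5 were clear themselves. Compared with the representative probe set, they had the same sign between the controls in 4 of 5, from empty vector 1 to RetSat shRNA in 4 of 5, and from empty vector 2 in 3 of 5. The second Hoxd8 probe set read 332.9, 568.9 and 490.9, so that RetSat shRNA lay 0.21 log2 below empty vector 2 rather than above it. The second Hoxa5 probe set was nearly level at 331.6, 313.0 and 317.3, unlike the first. The second Hoxa3 probe set read 44.9, 63.5 and 76.1, with RetSat shRNA above both controls, while the second Hoxc6 probe set kept the order of the first at 129.2, 173.9 and 144.6. Of the 7 dim ones, 2 shared the sign between the controls, and 1 for Hoxc6 ran the other way at 70.8 on empty vector 1 against 11.3 on empty vector 2. Hence the small differences of Hoxa3, Hoxa5 and Hoxd8 from empty vector 2 or empty vector 1 depended on the probe set, and those of Hoxb3 and Hoxc6 had the same signs in both clear probe sets.

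**Figure D3:**
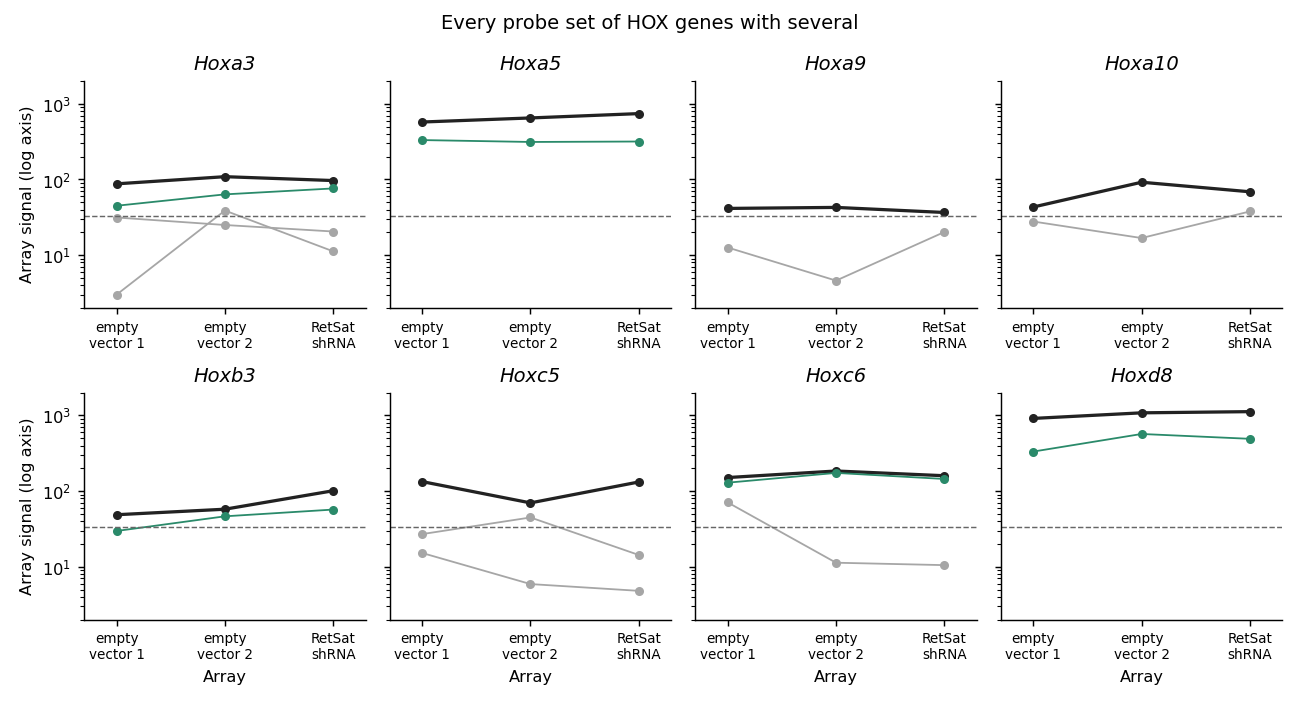
Signal (log axis) on the 3 arrays for every probe set of the 8 clear HOX genes with several. Each line joins 1 probe set's readings; black is the representative probe set, green another at or above the median level (dashed), and grey a dim one. Clear probe sets of Hoxb3 and Hoxc6 have steps of the same signs, though of different sizes for Hoxb3, whereas those of Hoxa5 and Hoxd8 differ in 1 or more signs.

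The 20 dim genes were set apart, since differences among them rest on signal within or near the range of olfactory receptors. Just above the dividing level were Hoxb6 and Hoxa9, and just below it was Hoxa4. Hoxa4 read 8.3, 45.3 and 60.6, and its other probe set read 3.5, 34.5 and 39.1. Both were thus low on empty vector 1 alone, by 1.58 and 1.71 log2 relative to empty vector 2, with RetSat shRNA 0.35 and 0.14 above empty vector 2. Without empty vector 1 the gene would have been counted as clear. Hoxc9 read 9.5, 27.5 and 43.4 in the same order, and would then have been counted too. Hoxd3 had the reverse order at 65.3, 27.5 and 10.4, and Hoxa13, a gene of the digits and hindgut, read 36.2, 31.0 and 17.4.

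The remaining dim genes were Hoxa11 in HoxA, Hoxb1, Hoxb2, Hoxb4, Hoxb5, Hoxb7, Hoxb9 and Hoxb13 in HoxB, Hoxc8, Hoxc10 and Hoxc13 in HoxC, and Hoxd1 and Hoxd10 to Hoxd13 in HoxD. Their signals ran from 0.7 to 37.5. Among all 20, Hoxa11, which shapes the forearm (28.0, 33.8 and 5.9), and Hoxc8 (7.3, 0.7 and 27.9) were the 2 genes at least 2-fold from both controls, 1 lower and 1 higher. Among all 7350 genes under the median level 4.9% were lower and 5.12% higher by the same rule, so 1 of 20 in each direction was near the background. None of these 6 readings exceeded the highest olfactory reading of its array. The 2 probe sets of Hoxb4 went opposite ways, at 37.5, 1.9 and 31.2 for one and 2.2, 23.9 and 7.5 for the other.

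HOX proteins bind DNA with cofactors, and their genes are held silent by Polycomb complexes and kept active by Trithorax methyltransferases, so 6 lists of such companions were read from the same fit. No member of any list passed limma, and none lay at least 2-fold from both controls. The counts below are to be read against all tested genes, of which 34.4% lay above and 25.4% below both controls, with medians of 0.14 log2 from empty vector 1 and 0 from empty vector 2. Of the TALE cofactors, which bind DNA beside HOX proteins, 6 were tested, 3 lay above both controls and 1 below, with a median of 0.65 log2 from empty vector 1 and 0.00 from empty vector 2. Empty vector 1 was the lowest array for 5 of the 6, as it was for 52.6% of all tested genes. Pknox1 read 235.1, 436.0 and 444.9, Pbx2 read 499.3, 796.7 and 811.0, Meis1 read 185.9, 265.6 and 287.9, and Pbx3 was lower with the shRNA at 387.7, 423.7 and 358.1. The first 3 differed by at most 0.11 log2 between RetSat shRNA and empty vector 2.

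Of 25 Polycomb genes tested, 5 lay above and 6 below both controls, with medians of 0.02 and -0.01, the share below being near that of all genes. Cbx7, a chromodomain subunit that binds methylated histone H3, read 66.4, 40.7 and 19.9. Suz12, a core subunit of the methylating complex, read 880.3, 910.2 and 731.4. Phc3 and Pcgf1 ranked next, the one below and the other above both controls. Of 13 Trithorax and H3K27 demethylase genes, 2 lay above and 3 below, with medians of 0.38 and -0.08. The methyltransferase Kmt2a, which maintains HOX transcription, read 437.8, 357.7 and 262.1, and the demethylase Kdm6a read 296.3, 306.9 and 230.2. Rbbp5 was lower and Dpy30 higher than both.

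Of 13 measured genes that induce HOX transcription, or carry or break down its retinoid signal, 7 reached the median level, where 59.6% of all genes did. The 6 dim ones included all 3 Cdx genes and the retinoic acid receptor Rarb. Among the 7 tested, 2 lay above and 2 below both controls, with medians of 0.51 and -0.07. Gdf11, a ligand that advances posterior HOX expression, read 52.9, 49.6 and 24.7, and the retinoic acid receptor Rarg read 764.4, 1067.7 and 1095.3. Rxrb was above both controls by no more than 0.04 log2 from the nearer one, and Egr2 was below both.

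Of 39 other positional homeobox and T-box genes measured, 20 were dim and 19 reached the median level, where 59.6% of all genes did. Among the 19 tested, 8 lay above both controls and 1 below, with medians of 0.19 and 0.09. Dlx2, a forebrain and jaw gene, read 78.2, 83.1 and 142.4, and Emx2, a gene of the forebrain and urogenital tract, read 59.5, 69.7 and 118.3. Lhx9 was higher than both controls too, and Msx1 was the 1 gene below both, at 52.2, 64.9 and 38.6. Of 10 tested genes in or beside the clusters, 4 lay above and 3 below, with medians of -0.10 and 0.01. The antisense transcript Hoxd3os1 gave clear signal in HoxD at 467.0, 440.5 and 394.0, and Hoxb5os in HoxB read 76.7, 52.7 and 40.4, while the sense genes Hoxd3 and Hoxb5 were dim. Hibadh, beside HoxA, was above and Cbx5, near HoxC, was below both controls.

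**Figure D4:**
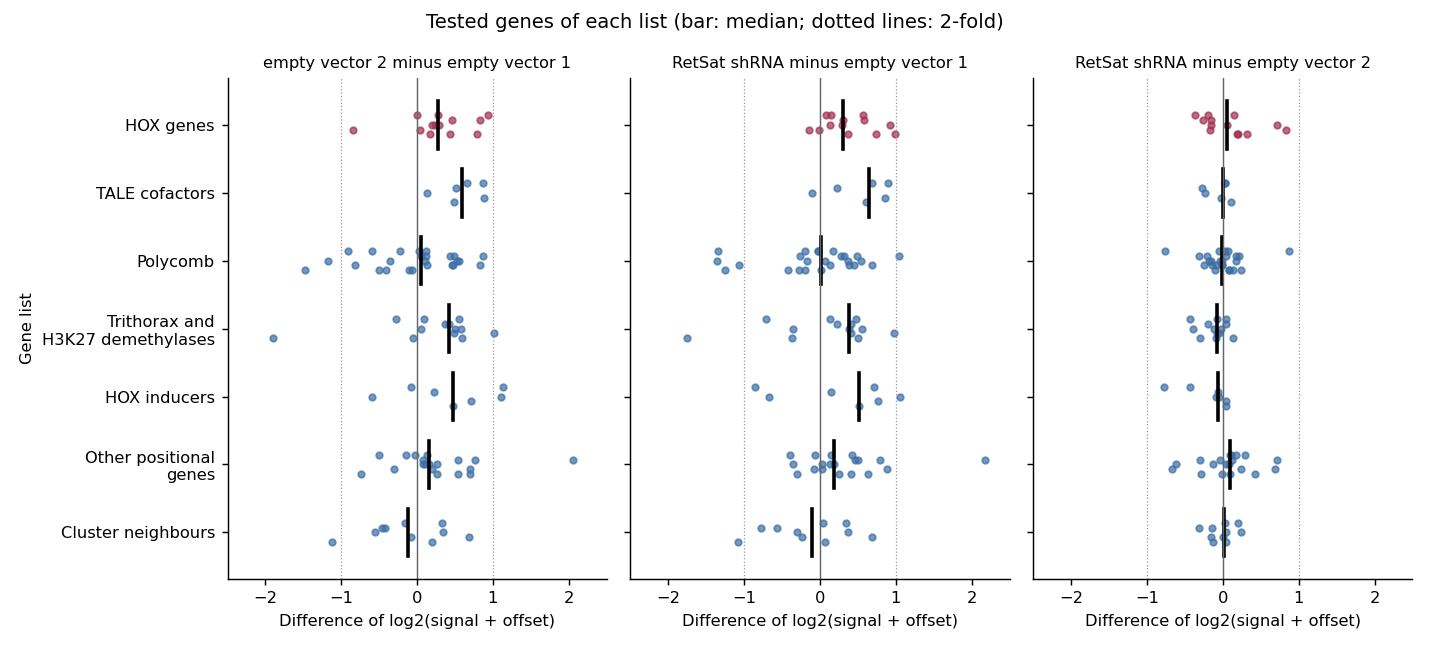
Differences of log2(signal + offset) for the tested genes of the HOX clusters (red) and of the 6 companion lists (blue), for each pair of arrays. Points are genes, black bars are medians and dotted lines mark 2-fold. Medians from empty vector 2 to RetSat shRNA lie between -0.08 and 0.09 in every list, while differences from empty vector 1 spread more widely.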

How the data were processed

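RNA from NIH3T3 cells was measured on 3 single-colour arrays of 45101 probe sets. The authors deposited linear intensity values per probe set. The 2% trimmed mean of the deposited intensities was 250 on each array, so they had been scaled alike. The sources used here name no software or summarisation. Extraction used Trizol LS and the label was biotin, per the labels. Only 3 arrays limit the precision.

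Gene symbols came from the platform annotation, checked by gene ID against GRCm38.p6, which changed 0 of them. Each gene took the probe set highest in mean log2(signal + 10.2) over the arrays, the offset being the 25th percentile of all values. Genes at or above the median of all probe sets (10843) went into lmFit and eBayes of limma 3.58.1 (under R 4.3.3), two-sided, with Benjamini-Hochberg adjustment at 0.05. The fit has 1 residual degree of freedom, and the lone shRNA array is assumed to vary like the controls, whose separate culture is not stated, so the p-values cover the spread among these arrays only, which may be technical. The fit was tested on simulated data, with 1 spread for all genes taken from RetSat shRNA and empty vector 2, which is below that between the controls. Named genes were all clear HOX genes, dim ones within 0.5 log2 of the median level, and up to 4 per companion list, ranked by the smaller of their differences from both controls. Hoxa11, Hoxb4, Hoxc8 and the marker and antisense-partner genes singled out beyond this were chosen after their values were seen. Members and lists were chosen with earlier results of these data known.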

Additional observations from a re-analysis of the deposited data

Results flagged for a closer look

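Outside the genes counted, 3 probe sets carry the symbols of 2 HOX genes each and were left out. One of them, shared by Hoxd3 and Hoxd4, read 36.1 and 45.5 on the control arrays and 52.5 on RetSat shRNA, above both control arrays and at or above the median level. It cannot be assigned to either gene, and the difference was not tested. Another probe set for the same pair read 6.0 and 45.4 on the controls and 2.6 on RetSat shRNA, below both, and one for Hoxb7 and Hoxb8 read 8.0, 26.6 and 6.5.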

How the results depend on the processing

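With 1 shRNA array and control arrays that stood apart, signs of small differences are the weak point here. The number of clear HOX genes was 13 by the median level, 33 with no filter, 4 with the filter at the 75th percentile (Hoxa5, Hoxa7, Hoxd8 and Hoxd9), 11 with the mean of a gene's probe sets (without Hoxa9 and Hoxc5) and 14 with an offset of 50 (with Hoxa4). On leaving out 1 control array it was 12 (without empty vector 2, Hoxb6 lost) to 15 (without empty vector 1, Hoxa4 and Hoxc9 gained). Above the highest olfactory receptor probe set, a level chosen after seeing the data, it was 14. Over all genes limma called 0, but 7 with a robust variance prior and 1 after centring each array on its median, none of them a HOX gene. The count of HOX genes at least 2-fold from both controls was 0, but 2 with no filter and 1 at 1.5-fold, and it was 0 against either control alone. Between the controls the count was 0, but 2 with an offset of 1 (Hoxa10 and Hoxb6), 2 after quantile normalization (Hoxa7 and Hoxa10) and 4 with no filter. Fewer or more genes enter under another filter by construction, and for the other settings the cause was not tested. Of 93 values of single HOX genes under other settings, 0 passed the threshold and 4 turned sign, from -0.012 to 0.077 (centred) and 0.15 (quantile) for Hoxa3 and from -0.060 to 0.029 and 0.086 for Hoxc6. Leaving out 1 control turned the sign for 6 genes, with ranges of -0.26 to 0.58 for Hoxa7, -0.37 to 0.56 for Hoxa10, -0.16 to 0.30 for Hoxc4, -0.15 to 0.13 for Hoxa3, -0.015 to 0.83 for Hoxc5 and -0.20 to 0.075 for Hoxc6. No paired analysis was possible because the groups share at most 1 number, and whether the 2 of the shRNA array is a replicate number is not given.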
